A study of Mus musculus with 8 samples.

Results

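Cytochromes P450 are heme enzymes that insert an oxygen atom into fats, steroids, drugs and toxins, and the liver is their main site. Their transcripts were read from Illumina bead arrays of mouse liver, 1 array for each of 8 mice, and the family was taken as all genes whose symbol in the array annotation begins with Cyp, a number and a letter. Cyp7a1, Cyp7b1, Cyp8b1, Cyp27a1 and Cyp51, enzymes of bile acid and sterol synthesis, were left out. The rule gave 70 genes with 94 probes in 30 subfamilies, of 16593 named genes on the array. Values are the deposited log2 signals, and a probe was kept where it lay above its array's median in at least 4 of the 8 arrays. By this filter 60 probes of 47 P450 genes were kept, in 21 subfamilies. The brightest kept probe of each gene was tested, among 8815 genes in all.

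The animals were C57Bl6/Ntac mice, 4 controls (numbers 641, 658, 661 and 663) and 4 mice with a liver knockout of Mfn1 (Mfn1 LKO, numbers 637, 638, 651 and 701). All 8 had been on a high fat diet for 8 weeks and had fasted for 6 hours, and the labels give no age or sex. AlbCre, Cre recombinase under the albumin promoter, acts in hepatocytes and stands in the titles of both groups, while the genotype of the controls is given as wildtype, so whether the controls carried Cre is unknown. Each array held RNA from a different mouse, and group differences are set against the spread between these mice. Whole liver was measured, so fewer cells of a type and less RNA per cell cannot be told apart.

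In hepatocytes most P450 enzymes sit in the endoplasmic reticulum and take electrons from cytochrome P450 reductase and cytochrome b5. The Cyp1, Cyp2 and Cyp3 families mainly handle foreign compounds and steroids under the receptors AHR, CAR and PXR, and the Cyp4 family hydroxylates the far end of fatty acid chains, with several of its genes under PPAR alpha. In mice many members differ between males and females through the rhythm of growth hormone release, and many are stronger around the central vein than around the portal vein.

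The arrays were alike, with correlations between 0.986 and 0.995. Mfn1, the outer membrane fusion protein of mitochondria that was targeted, had a log2 signal of 8.77, 8.81, 8.71 and 8.70 in the controls and of 7.53, 7.40, 7.43 and 7.32 in the Mfn1 LKO livers. It fell by 1.33 (SE 0.051, limma adjusted p = 7.91e-06). The Y-linked gene Eif2s3y lay between 8.34 and 8.98 in all 8 mice, while both Xist probes stayed between 6.48 and 6.65, around the array median of 6.65. The hepatocyte genes Ttr, Trf and Ahsg lay between 13.91 and 14.38 in all 8 mice, near the top of the array's range. Not all hepatocyte markers were so even. Of the 14 tested, 10 lay above 0 and 4 below, and none passed. Apoh had the smallest p, with 10.72 to 11.47 in controls and 11.41 to 11.62 in Mfn1 LKO livers. Its difference was 0.43 (SE 0.14, limma adjusted p = 0.347), and Fga, the next, gave -0.10.

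No P450 gene passed an adjusted p of 0.05 in limma's fit over all 8815 genes. The lowest adjusted p of a P450 gene was 0.339, and of all genes Mfn1 alone passed (0.0113%). At an unadjusted p under 0.05 there were 2 of 47 P450 genes (4.26%), against 10.9% of all genes. Cyp4a12a was on the higher side, where 5.71% of all genes lay, and Cyp4a14 on the lower side, where 5.15% lay. No P450 gene had groups that did not overlap, against 6.11% of all genes.

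**Figure D1:**
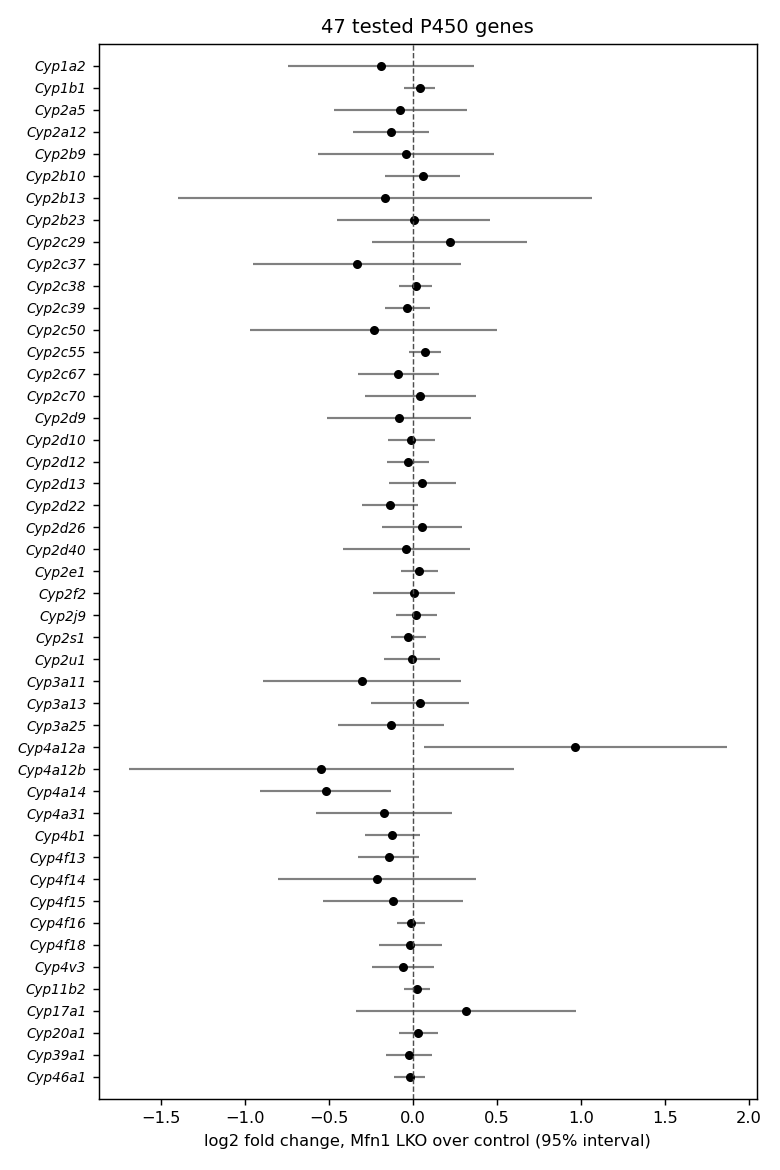
Log2 fold change of each of the 47 tested P450 genes, Mfn1 LKO over control, with its 95% interval from the limma fit; the dashed line marks no difference. The intervals of Cyp4a12a (0.06 to 1.87) and Cyp4a14 (-0.91 to -0.13) miss 0 before adjustment, and the other 45 cover it.

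Of the 47 genes 17 had a log2 fold change above 0 and 30 below it, 63.8% below, against 55.3% of all genes. The median over the family was -0.029, beside -0.0092 over all genes, and both are small against the median SE of a P450 gene, 0.105. Without Mfn1 LKO mouse 651 the family's median was 0.0089, with 24 genes above 0 and 22 below. By family, the 26 tested Cyp2 genes split into 11 above 0 and 15 below, and the 3 Cyp3 genes into 1 and 2. Of the 11 tested Cyp4 genes 10 lay below 0, with a median of -0.12. The 95% interval lay within 1 log2 unit of 0 for 44 of the 47 genes and within 0.5 for 32, so a change of 2-fold or more lay outside the interval for most of the family. The exceptions to the wider bound were Cyp4a12a, Cyp4a12b and Cyp2b13. Near the lowest signals of the array such an interval is no limit on how far the transcript itself differed.

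The Cyp4a genes hold the fatty acid omega-hydroxylases, and all 4 on the array were tested. Cyp4a14, a classical PPAR alpha target, had a log2 signal of 12.24, 11.85, 12.43 and 12.33 in controls 641, 658, 661 and 663. In Mfn1 LKO mice 637, 638, 651 and 701 it was 11.70, 12.02, 11.82 and 11.24. Only control 658 and Mfn1 LKO 638 crossed over between the groups. The difference was -0.52 (SE 0.17, 95% interval -0.91 to -0.13), a signal 1.43-fold higher in controls, which did not pass (limma adjusted p = 0.339). Every array left out in turn kept it below 0, between -0.64 and -0.37, the smallest without Mfn1 LKO 701.

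Cyp4a12a, an omega-hydroxylase of arachidonic acid that is far stronger in male than in female mice, had the opposite sign. Its log2 signal was 11.88, 11.09, 9.74 and 10.84 in the controls and 11.94, 12.29, 11.88 and 11.32 in the Mfn1 LKO livers. The 4 Mfn1 LKO mice lay close together, while the controls spread over more than 2 log2 units, from the low value of 661 to 641 at the level of the Mfn1 LKO group. The difference was 0.97 (SE 0.40, 95% interval 0.06 to 1.87), which did not pass (limma adjusted p = 0.422). It was 0.58 without control 661 and 1.30 without control 641.

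Cyp4a12b, the neighbour of Cyp4a12a in the genome, did not follow it in the group difference. Its log2 signal was 9.48, 7.87, 7.15 and 6.93 in the controls and 7.64, 7.71, 7.10 and 6.79 in the Mfn1 LKO livers. Control 641 stood apart, and the difference of -0.55 (SE 0.51, limma adjusted p = 0.762) shrank to -0.0055 without it. The fold changes of Cyp4a12a and Cyp4a12b thus had opposite signs. Each has 1 probe here, and how far either probe binds the other transcript was not tested.

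Cyp4a31, another omega-hydroxylase, lay between 9.21 and 9.60 in controls and between 8.70 and 9.65 in Mfn1 LKO livers. Its difference was -0.17 (SE 0.18), and it was -0.01 without Mfn1 LKO 701. That mouse had the lowest signal of all 8 for Cyp4a14, Cyp4a31 and Cyp4a12b.

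**Figure D2:**
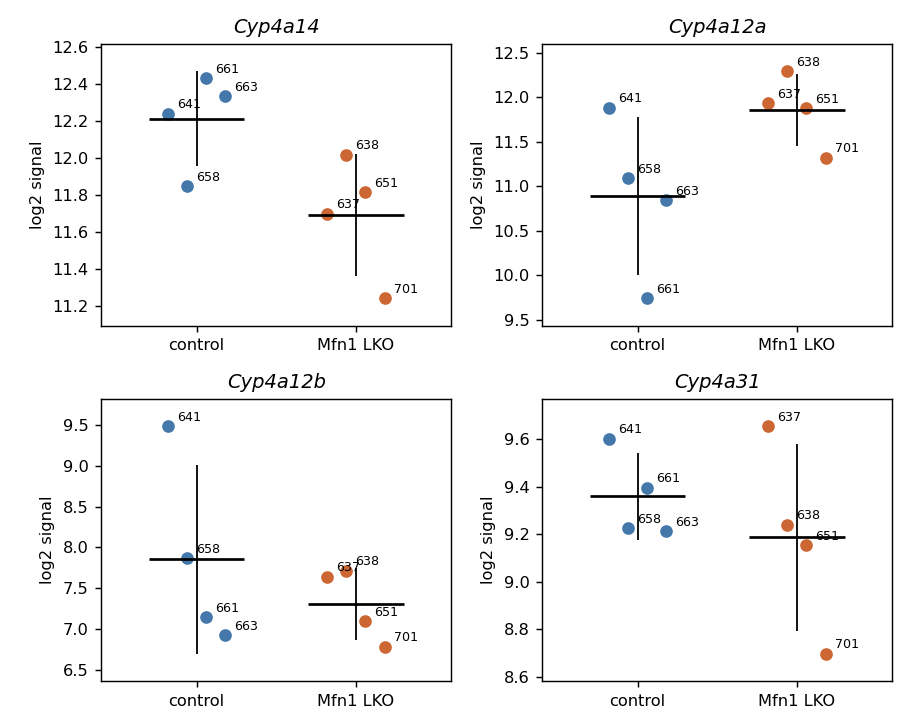
Log2 signal of the 4 Cyp4a genes in each mouse (points, labelled by animal number), with the group mean (horizontal bar) and SD (vertical line), n = 4 a group; the vertical scales differ. Cyp4a14 sits lower in most Mfn1 LKO mice and Cyp4a12a higher, while control 641 sets the Cyp4a12b mean of the controls.

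The Cyp4f genes inactivate leukotrienes and hydroxylate long fatty acids. By the brightest probe of each gene, all 5 tested members had a fold change below 0, from -0.21 to -0.013, and none passed. Cyp4f14, which hydroxylates leukotriene B4, had 10.83, 10.74, 10.45 and 10.57 in the controls and 10.81, 10.88, 9.56 and 10.48 in the Mfn1 LKO livers. Mouse 651 alone was low, and the difference of -0.21 became 0.078 without it. Its genome neighbour Cyp4f13 lay between 9.51 and 9.60 in the controls and had 9.62, 9.41, 9.19 and 9.44 in the Mfn1 LKO livers, a difference of -0.14 (SE 0.081, limma adjusted p = 0.574). Without Mfn1 LKO 637 its groups no longer overlapped and the difference was -0.21. Cyp4f15 was again lowest in mouse 651, at 9.07, and highest in 637, at 10.12, both Mfn1 LKO mice. Cyp4f16 and Cyp4f18 stayed between 6.71 and 7.05, and a second probe of Cyp4f18 that passed the filter gave 0.01. Cyp4f18 hydroxylates leukotrienes in neutrophils. Cyp4v3, the mouse counterpart of a human fatty acid hydroxylase whose loss damages the retina, gave -0.059 (SE 0.082), and Cyp4b1, described mainly in the lung, gave -0.12 (SE 0.072).

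The Cyp2b genes include the CAR target Cyp2b10 and, in mice, the female-biased Cyp2b9 and Cyp2b13, which lie beside each other in the genome. Their group means were nearly equal. Cyp2b9 had a log2 signal of 10.92, 11.07, 11.73 and 11.63 in the controls and of 11.33, 10.80, 11.75 and 11.31 in the Mfn1 LKO livers, a difference of -0.041 (SE 0.23). Cyp2b13 had 7.69, 8.15, 9.84 and 9.14 in the controls and 8.87, 7.19, 8.88 and 9.21 in the Mfn1 LKO livers. This is a 6.29-fold range over the 8 mice, for a group difference of -0.17 (SE 0.55, limma adjusted p = 0.949). Cyp2b23 had 9.03, 9.02, 9.76 and 9.60 in the controls and 9.46, 8.92, 9.61 and 9.43 in the Mfn1 LKO livers. All 3 genes had their lowest values in the same mice, controls 641 and 658 and Mfn1 LKO 638. Cyp2b10 stayed between 6.60 and 7.05, near the array's median signal, and gave 0.058 (SE 0.099). These members share much sequence, and cross-binding of their probes was not tested.

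The promoters of Cyp2b9 and Cyp2b13 are shown because these neighbours varied together between mice. In the RefSeq promoter table (build GRCm38.p6) the 250 bases before the start of Cyp2b9 (chr7:26173159-26173408, plus strand) and of Cyp2b13 (chr7:26061245-26061494, plus strand) were identical at 248 positions (99.2%). The capitals mark the 2 positions at which they differ.
Cyp2b9: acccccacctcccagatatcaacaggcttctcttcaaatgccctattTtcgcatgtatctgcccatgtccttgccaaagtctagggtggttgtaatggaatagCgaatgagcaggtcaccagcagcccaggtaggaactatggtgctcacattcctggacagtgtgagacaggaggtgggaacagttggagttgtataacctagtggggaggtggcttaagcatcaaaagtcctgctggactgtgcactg
Cyp2b13: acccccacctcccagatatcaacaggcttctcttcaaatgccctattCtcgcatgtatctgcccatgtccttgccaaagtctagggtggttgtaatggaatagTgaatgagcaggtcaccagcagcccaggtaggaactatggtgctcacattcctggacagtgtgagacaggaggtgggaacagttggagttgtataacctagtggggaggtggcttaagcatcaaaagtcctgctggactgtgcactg
The same window of Cyp2b10 was 70% identical to that of Cyp2b9 and the window of Cyp2b23 63.0%. The part of promoter sequence in the variation between mice was not tested.

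**Figure D3:**
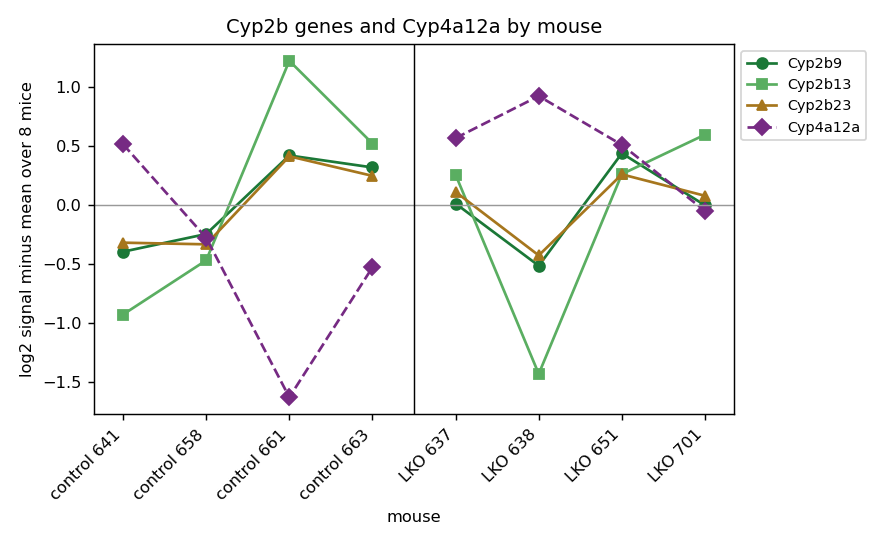
Log2 signal of Cyp2b9, Cyp2b13, Cyp2b23 and Cyp4a12a in each mouse, minus the gene's mean over the 8 mice; lines only join the points of a gene, since mice have no order. Control 661 combines high Cyp2b signals with the lowest Cyp4a12a, and Mfn1 LKO 638 the lowest Cyp2b signals with the highest Cyp4a12a. Other mice go against such an opposition. Mfn1 LKO 651 has the highest Cyp2b9 with Cyp4a12a above its mean, and control 658 low Cyp2b signals with Cyp4a12a below its mean.

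The Cyp2c genes make and break down signalling lipids from arachidonic and linoleic acid, and 8 of the 10 on the array were tested, 4 above 0 and 4 below. Cyp2c37 had a log2 signal of 12.47, 12.27, 12.39 and 11.89 in the controls and of 12.62, 12.05, 11.12 and 11.89 in the Mfn1 LKO livers. Cyp2c50 had 11.89, 11.66, 11.87 and 11.08 in the controls and 12.09, 11.63, 10.44 and 11.41 in the Mfn1 LKO livers. Both were highest in Mfn1 LKO 637 and lowest in Mfn1 LKO 651, so the extremes lay within the same group. The differences were -0.33 (SE 0.27) and -0.23 (SE 0.32), with limma adjusted p = 0.719 and 0.853. Without mouse 651 they were -0.067 and 0.083, and without mouse 637 they were -0.57 and -0.47. A second probe of Cyp2c37 gave -0.35, and the third, between the 43.2 and 62.5 percentiles of its arrays, gave -0.002. A second probe of Cyp2c50, between the 58.0 and 75.7 percentiles of its arrays, gave 0.086.

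The promoters of this pair are shown because both followed the same mice. The 250 bases before Cyp2c37 (chr19:39992174-39992423, plus strand) and Cyp2c50 (chr19:40089429-40089678, plus strand) were 84.3% identical over their alignment. Capitals mark matches to CAAAGTC, the core of a site of the hepatocyte factor HNF4.
Cyp2c37: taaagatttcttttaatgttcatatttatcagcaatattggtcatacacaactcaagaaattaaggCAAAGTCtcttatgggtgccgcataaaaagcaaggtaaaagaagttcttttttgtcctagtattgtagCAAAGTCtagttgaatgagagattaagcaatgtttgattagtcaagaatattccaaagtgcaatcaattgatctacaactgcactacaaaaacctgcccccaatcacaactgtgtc
Cyp2c50: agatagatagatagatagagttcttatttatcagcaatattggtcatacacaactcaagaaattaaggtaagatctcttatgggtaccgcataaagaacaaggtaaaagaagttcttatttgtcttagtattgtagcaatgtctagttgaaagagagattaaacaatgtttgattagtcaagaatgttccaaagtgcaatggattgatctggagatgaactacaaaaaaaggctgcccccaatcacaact
The Cyp2c37 window holds 2 matches, and these letters are not in the Cyp2c50 window. On either strand CAAAGTC stood in 12 of 41 windows of tested P450 genes (29.3%) and in 3.84% of all 32851 windows of this length. The Cyp2b9 and Cyp2b13 windows each hold 1 match, its first base 176 bases before the start. TATAAA, the TATA box, stood in 34.1% of the P450 windows and 12.4% of all, and the STAT element TTCNNNGAA in 4.88% and 7.02%. The table matched 36 of the 47 tested genes, and a gene can have more than 1 window. Matches of each motif were counted on their own, whether or not they overlapped another, and they describe the sequence only.

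The other 6 tested Cyp2c genes gave between -0.086 and 0.22. Cyp2c29, an epoxygenase that CAR induces, had 8.16, 7.99, 7.66 and 7.16 in the controls and 8.20, 7.97, 7.65 and 8.03 in the Mfn1 LKO livers. Its difference of 0.22 (SE 0.20) was 0.026 without control 663, the lowest mouse. Cyp2c70, which makes the muricholic acids of rodent bile, gave 0.044 (SE 0.15) with signals from 11.30 to 11.95. Cyp2c67 gave -0.086 (SE 0.11), and its second probe gave -0.21. Cyp2c38, Cyp2c39 and Cyp2c55 stayed between 6.65 and 6.91, close to the array's floor. Cyp2c55, described mainly in the colon, gave 0.073 (SE 0.043), the smallest p on the higher side of the family after Cyp4a12a.

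The Cyp2d genes, relatives of the human drug enzyme CYP2D6, gave differences between -0.14 and 0.055, and none passed. Cyp2d22, its proposed mouse counterpart, had 11.87, 11.74, 11.92 and 11.83 in the controls and 11.91, 11.58, 11.61 and 11.71 in the Mfn1 LKO livers. The difference was -0.14 (SE 0.075, limma adjusted p = 0.568), and it was -0.21 without Mfn1 LKO 637, the only mouse of its group among the controls' values. Cyp2d9, a male-biased testosterone hydroxylase, lay between 12.63 and 13.37 in controls and between 12.55 and 13.24 in Mfn1 LKO livers, a difference of -0.083 (SE 0.19). The remaining tested members, Cyp2d10, Cyp2d12, Cyp2d13, Cyp2d26 and Cyp2d40, gave between -0.04 and 0.055. The 3 probes of Cyp2d26 disagreed in sign, at 0.053, -0.17 and -0.21.

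Cyp2e1, which oxidises ethanol, acetone and fatty acids, was the steadiest of the strongly detected members. It had 14.05, 13.98, 13.88 and 13.87 in the controls and 14.02, 13.98, 13.93 and 14.00 in the Mfn1 LKO livers. The difference was 0.038 (95% interval -0.07 to 0.15) at signals near the top of the array, 14.4. How far signals so near the top can show a difference was not tested. Cyp2f2, known for naphthalene and as a marker of hepatocytes near the portal vein, gave 0.0044 (SE 0.11). Cyp2a5, the coumarin hydroxylase, had 12.77 to 13.27 in controls and 12.57 to 13.40 in Mfn1 LKO livers, a difference of -0.075 (SE 0.18). Its 3 other probes gave -0.15, -0.033 and 0.066. Cyp2a12, a steroid and bile acid hydroxylase of mouse liver, gave -0.13 (SE 0.10). Cyp2j9, Cyp2s1 and Cyp2u1 lay between 6.56 and 7.44 with differences of 0.02, -0.029 and -0.0054.

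In the Cyp1 family, Cyp1a2, the AHR target that oxidises caffeine and aromatic amines, had 9.51, 9.64, 10.08 and 9.96 in the controls and 10.09, 9.63, 8.86 and 9.85 in the Mfn1 LKO livers. Mouse 651 was again the lowest and 637 the highest. The difference was -0.19 (SE 0.25), and it was 0.057 without mouse 651. A second probe gave -0.17. Cyp1b1, an enzyme of tissues outside the liver for the most part, stayed between 6.59 and 6.73.

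In the Cyp3 family, Cyp3a11, the main PXR target, had 11.48, 11.66, 12.51 and 11.87 in the controls and 11.42, 11.02, 11.95 and 11.93 in the Mfn1 LKO livers. Its extremes were control 661 and Mfn1 LKO 638, the mice that also bounded Cyp2b13. The difference was -0.30 (SE 0.26, limma adjusted p = 0.740), and it was -0.092 without control 661. Cyp3a25 next to it gave -0.13 (SE 0.14), and Cyp3a13, an enzyme strong in intestine, gave 0.043 (SE 0.13). The other probes of Cyp3a13 gave 0.053 and -0.041.

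Of the other families 5 genes were tested. Cyp17a1, the steroid hydroxylase at the entrance to androgen synthesis, had 7.62, 8.17, 7.68 and 8.75 in the controls and 7.67, 8.66, 8.53 and 8.63 in the Mfn1 LKO livers. Mfn1 LKO 637 lay with the low controls, and the difference of 0.31 (SE 0.29) was 0.55 without it. Cyp39a1, an oxysterol hydroxylase, gave -0.025, Cyp20a1, an enzyme without a known substrate, 0.032, and Cyp46a1, the cholesterol hydroxylase of brain, -0.02. Cyp11b2, the aldosterone synthase of the adrenal gland, stayed between 6.66 and 6.76 and gave 0.025.

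The other 23 P450 genes did not pass the filter. They include adrenal steroid enzymes (Cyp11a1, Cyp11b1, Cyp21a1), enzymes that break down retinoic acid (Cyp26a1, Cyp26b1) or make and break down active vitamin D (Cyp2r1, Cyp24a1, Cyp27b1), the AHR target Cyp1a1, and Cyp3a16, Cyp3a41a and Cyp3a44, described in fetal or female mouse liver. The rest were Cyp2b19, Cyp2c40, Cyp2c65, Cyp2d34, Cyp2g1, Cyp2j5, Cyp2j6, Cyp2j11, Cyp2j13, Cyp4f39 and Cyp4x1. The P450 probes under the filter had log2 signals between 6.40 and 6.84, where the lowest of all probes was 6.38, and differences between -0.068 and 0.09. In 1 of these probes, of Cyp2g1, the unadjusted p was under 0.05. At such signals neither presence nor change can be read. Of 7 adrenal cortex markers on the array 2 were tested, Mrap and Scarb1, a lipoprotein receptor that liver also uses, and Star, Nr5a1 and Akr1b7 did not pass the filter.

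P450 signals differed widely between individual mice. The median SD within groups was 0.18 over the 47 P450 genes and 0.075 over all genes. Among the 26 P450 genes of mean log2 signal over 9 it was 0.29, against 0.11 over 1729 genes of that range. Of these 26 genes 8 spanned more than 1 log2 unit over the mice (30.8%), against 5.55% of the 1729. Ranked by SD over all 8 mice among 8815 genes, Cyp2b13 stood 9th, Cyp4a12b 12th and Cyp4a12a 14th, and 8 P450 genes stood among the first 100.

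**Figure D4:**
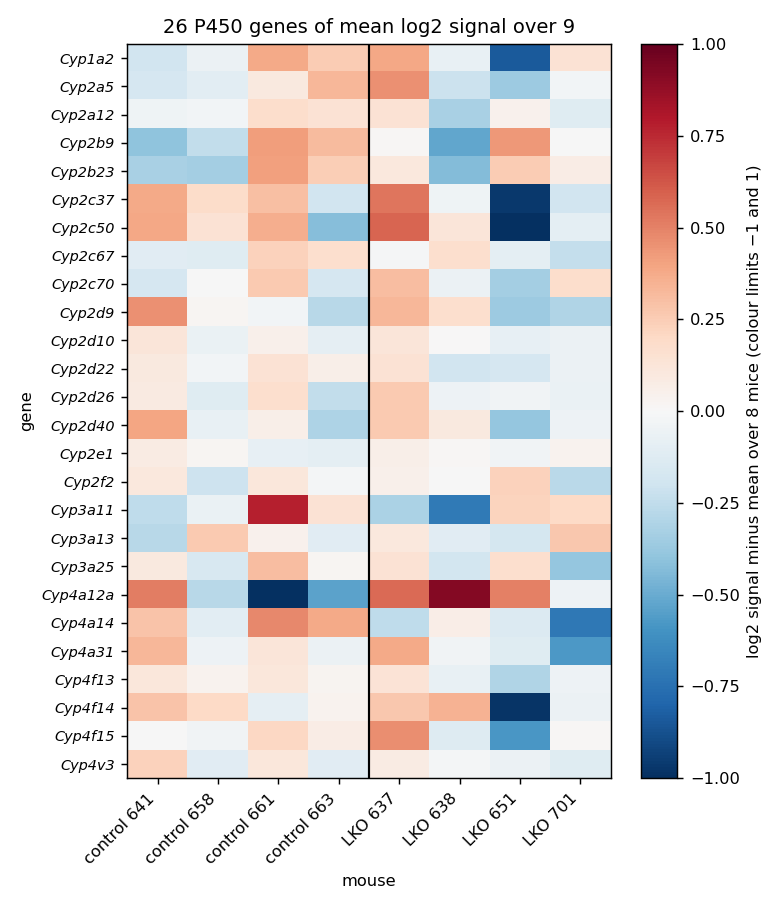
Log2 signal of the 26 P450 genes with a mean over 9, each minus its mean over the 8 mice (red higher, blue lower); values past 1 or -1, such as Cyp4a12a in control 661, take the end colour. The column of Mfn1 LKO 637 is mostly red (mean 0.21) and that of Mfn1 LKO 651 mostly blue (mean -0.20).

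In the P450 genes the most different mice were both Mfn1 LKO. Over the 26 genes the mean deviation from the gene's mean was 0.21 in mouse 637 and -0.20 in mouse 651, and between -0.098 and 0.13 in the other 6. Mouse 637 had the highest signal of the 8 in 9 of the 26 genes (34.6%), against 13.7% of the 1729 genes. Mouse 651 had the lowest in 10 (38.5%), against 18.6%. Among these were Cyp1a2, Cyp2a5, Cyp2c37, Cyp2c50, Cyp2c70, Cyp4f13, Cyp4f14 and Cyp4f15. At the other extreme, mouse 637 had the lowest signal in 0 of the 26 genes, against 17.4% of the 1729. Mouse 651 had the highest in 2 (7.69%), against 21.2%. These 2 arrays also stood apart over all genes, with the lowest array weights of the 8 (0.71 and 0.73). In the controls, 661 had the highest signal in 7 genes (26.9%, against 15.4%). The 651 array had the largest mean score of 17 macrophage markers, 0.30, with 701 at 0.29, the other Mfn1 LKO mice at -0.13 and 0.025, and the controls between -0.23 and 0.05. Of these markers 16 gave a fold change above 0, where 55.3% of all genes lay below it. An unadjusted p under 0.05 was found for 7, all higher, against 5.71% of all genes, among them Vsig4 (0.52) and Adgre1 (0.66), and none passed. The score of 14 hepatocyte markers lay between -0.14 and 0.056 in controls and between -0.0058 and 0.053 in Mfn1 LKO livers. Mouse 701, the lowest for 3 Cyp4a genes, had the highest score of the 7 tested neutrophil markers, 0.56, and of the 5 tested red cell markers, 0.55, where the controls lay between -0.24 and 0.19 and between -0.16 and 0.044. The medians of the endothelial, stellate cell and lymphocyte lists were 0.016, 0.029 and 0.029, and at most 2 bile duct, adipocyte, exocrine pancreas or kidney markers of a list passed the filter. The part of these cells in the P450 values was not tested.

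**Figure D5:**
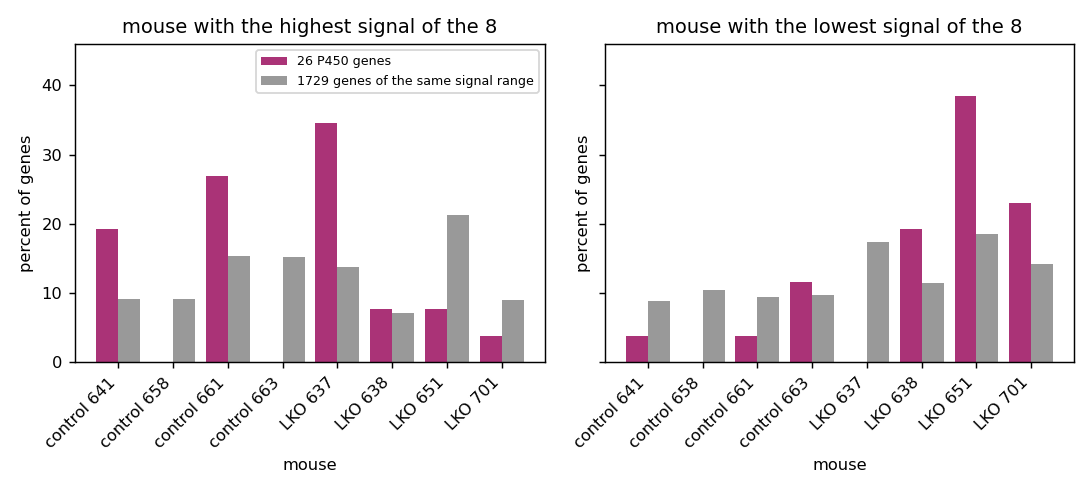
Percent of genes for which each mouse had the highest (left) or the lowest (right) signal of the 8, for the 26 P450 genes (purple) and for all 1729 genes of mean log2 signal over 9 (grey). Mfn1 LKO 637 leads on the left with 34.6% and Mfn1 LKO 651 on the right with 38.5%.

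Other sex-biased liver genes also varied between mice. The 16 tested male-biased genes outside the family had a mean score of 0.54 in control 641 and -0.46 in control 663, and of 0.26 and -0.34 in Mfn1 LKO 637 and 651. The 7 tested female-biased genes scored highest in Mfn1 LKO 701 (0.16) and control 661 (0.14), and lowest in control 641 (-0.19). Mfn1 LKO 637 was above 0 for both lists, with a female-biased score of 0.11. Serpina1e, a male-biased protease inhibitor, had 12.10, 12.56, 10.08 and 10.18 in the controls and 12.01, 12.66, 9.50 and 11.77 in the Mfn1 LKO livers. It was lowest in 651, 661 and 663, where Cyp2b9 was highest. Mup20, a male-biased pheromone protein, had 11.11, 11.05, 9.76 and 8.85 in the controls and lay between 10.73 and 11.13 in the Mfn1 LKO livers. Like Cyp4a12a, it was spread in the controls and even in the Mfn1 LKO group. Hamp2, female-biased, was highest in control 661 (12.59) and lowest in Mfn1 LKO 638 (10.71). These 3 genes were named after their values were seen, and none passed the test between groups. By the smallest p, the male-biased list was led by Gstp1 (-0.26, limma adjusted p = 0.328), a glutathione transferase, and Selenbp2 (0.14), and the female-biased list of 7 by Rtn4 (0.16) and Acot3 (0.50).

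Among genes that serve P450 enzymes, 14 redox partners were listed, of which 8 were on the array and 6 were tested. Cytochrome P450 reductase was not among the 6. Of the 6 tested, 3 had an unadjusted p under 0.05, all higher, where 5.71% of all genes lay, and none passed. The same 3 had groups that did not overlap, against 6.11% of all genes. Pgrmc1, a heme-binding membrane partner of P450 enzymes, had 10.12, 10.05, 9.83 and 9.65 in the controls and 10.27, 10.53, 10.64 and 10.44 in the Mfn1 LKO livers, with no overlap. Its difference was 0.56 (SE 0.11, limma adjusted p = 0.188). Cyb5a, cytochrome b5, had 11.17, 11.33, 11.14 and 10.84 in the controls and 11.38, 11.40, 11.57 and 11.41 in the Mfn1 LKO livers, again with no overlap. Its difference was 0.32 (SE 0.096, limma adjusted p = 0.283). Cyb5r1 gave 0.11, also without overlap, while Cyb5b, Cyb5r3 and Cyb5r4 gave -0.035, 0.08 and -0.06. Of 15 tested genes of heme synthesis and breakdown, 8 lay above 0 and 7 below with a median of 0.031, and none had an unadjusted p under 0.05. Uros (0.15) and Cpox (0.11), enzymes of heme synthesis, came first, and Alas1, its rate-limiting enzyme, gave 0.11 (SE 0.18).

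Of 23 tested regulators of P450 genes 10 lay above 0 and 13 below, with a median of -0.02. The 3 with an unadjusted p under 0.05 were Rxrb (-0.16), a shared partner of CAR, PXR and PPAR alpha, the estrogen receptor gene Esr1 (0.10) and the beta-catenin gene Ctnnb1 (0.29), against 10.9% of all genes with such a p, and none passed. Ppara itself gave -0.072 (SE 0.05) and Hnf4a 0.10 (SE 0.062). The 23 tested PPAR alpha targets outside the family lay mostly on the other side of 0 from Cyp4a14. Of these 18 lay above 0, the median was 0.10 against -0.0092 for all genes, and the 6 with an unadjusted p under 0.05 were all higher, where 5.71% of all genes lay. Ehhadh, of peroxisomal fatty acid oxidation, led with 0.45 (limma adjusted p = 0.270), followed by the lipase Mgll (0.28).

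Of 25 tested targets of xenobiotic receptors 16 lay above 0, with a median of 0.024. An unadjusted p under 0.05 was found for 3 on the higher side and 2 on the lower. Of all genes, 5.71% and 5.15% lay there, and none of the 25 passed. The smallest p were those of Aldh1a1, a retinal dehydrogenase (0.43, limma adjusted p = 0.209), and Ugt2b34, a glucuronosyltransferase (0.48, limma adjusted p = 0.267). Both had groups that did not overlap, as 6.11% of all genes had. The 16 tested glucuronosyltransferase and sulfotransferase genes split into 8 and 8, with Ugt1a6a at -0.18. Among markers of hepatocyte position, 16 pericentral genes had a median of -0.041 and 17 periportal genes 0.0031. An unadjusted p under 0.05 was found for 2 pericentral genes on the higher side and 1 on the lower. Of the periportal genes there were 3 and 1. The shares of all genes were again 5.71% and 5.15%, and no gene of either list passed. The pericentral list was led by Aldh1a1 (0.43) and the glutamine synthetase gene Glul (0.36). Lgr5, a pericentral receptor that strengthens Wnt signals, gave -0.14. The periportal list was led by Aldh1b1 (0.33) and Ctnnbip1 (-0.13). Of 14 tested circadian genes 6 lay above 0 and 8 below, with a median of -0.039. Nampt (0.35) and Nfil3 (0.24) came first. They were the 2 with an unadjusted p under 0.05, where 5.71% of all genes lay on the higher side, and neither passed. The 20 tested acute phase genes, which the liver switches on in inflammation, had a mean score of 0.51 in control 658 and 0.39 in Mfn1 LKO 701 and between -0.28 and -0.067 in the other 6. In these 2 mice the 26 P450 genes of mean log2 signal over 9 had a mean deviation of -0.052 and -0.098, and the part of the acute phase response was not tested.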

How the data were processed

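Total RNA of 8 mouse livers was amplified into biotin-labelled RNA and hybridised to Illumina bead arrays (per the labels' protocols). A table of linear intensities of 25697 probes was deposited by the authors, with no background subtracted and no detection p-values. They also deposited log2 values, which lay within 0.0066 of the quantile normalized log2 intensities of the same arrays, and these were used as the main values. The scanner software is not given in the sources used here. Array medians lay between 96.4 and 103.9 intensity units. Precision is limited by having 4 arrays a group.

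A probe was kept where its signal exceeded the median of its array in 4 or more of the 8 arrays (12755 probes), and of the named ones (12003) the brightest of each gene was tested, with names from GEO's platform annotation. All 70 members matched RefSeq by gene ID. Groups, taken from the sample titles, were compared by two-sided moderated tests (lmFit, then eBayes) of limma 3.58.1 in R 4.3.3. Benjamini-Hochberg adjusted p-values were taken over 8815 genes, with a threshold of 0.05. Fold changes are Mfn1 LKO over control on the log2 scale, and without background subtraction they understate the change of dim genes. The fit was tested on simulated arrays. A list score is the mean over its genes of the log2 signal minus the gene's mean over the 8 arrays.

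The members and the gene lists were chosen with earlier results of these data known, and so were the motif letters. The rule for named genes took the 10 members on each side with the smallest p, the brightest of each subfamily, the 8 with the largest SD, all tested Cyp4a, Cyp2b, Cyp2c and Cyp3a genes, and the 2 genes of each list with the smallest p. For the acute phase list, the sex chromosome list and several cell type lists, these 2 genes were not all named. Other members were named to account for the whole family, and other genes after their values were seen. Promoter windows were compared with Biopython 1.88, and figures drawn with matplotlib 3.10.9 in Python 3.11.15. The alternatives were other background corrections (normexp with an offset of 50 or 16), other normalizations, filters and rules for several probes, limma-trend, array weights and each array left out in turn. Slide and scan batches are named neither in the labels nor in the headers, so no block was fitted.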

Additional observations from a re-analysis of the deposited data

Results flagged for a closer look

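In 3 of 94 groups of 4 mice (47 genes, 2 groups each) a single mouse lay far from the other 3 by Dixon's test, where chance alone flags about 1 in 20 groups. All 3 were Mfn1 LKO mice. Cyp17a1 had a log2 signal of 7.67 in mouse 637, while the other Mfn1 LKO mice lay between 8.53 and 8.66. Cyp2d26 had 12.76 in mouse 637, while the others lay between 12.43 and 12.46, in the brightest of its 3 probes. Cyp2b13 had 7.19 in mouse 638, while the others lay between 8.87 and 9.21.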

How the results depend on the processing

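No P450 gene passed the adjusted threshold under any alternative, with a lowest adjusted p of 0.216 over all of them, and Mfn1 passed under every alternative. Its log2 fold change then lay between -1.83 and -1.29. The number of P450 genes with an unadjusted p under 0.05, 2 in the main setting, was 0 of 47 with intensities scaled to a common median (where 5.01% of all genes had such a p), 1 with limma-trend and robust estimation (Cyp4a14), 3 with array weights (Cyp2d22, Cyp4a12a and Cyp4a14), 3 of 70 with no filter (Cyp2g1, Cyp4a12a and Cyp4a14), and between 1 and 4 when each array was left out in turn. The 4, without Mfn1 LKO 637, were Cyp2c37, Cyp2d22, Cyp4a14 and Cyp4f13, and the count was 1 (Cyp4a14) without control 661 or 663 or Mfn1 LKO 638 or 651. Of all genes, 10.1% had an unadjusted p under 0.05 with limma-trend, 12.8% with array weights and 8.33% with no filter. With an array left out the share was between 7.12% and 12.6%. P450 genes whose groups did not overlap, 0 in the main setting, numbered 1 with no filter (Cyp11a1), against 4.57% of all genes. With an array left out they numbered between 0 and 2, against 7.69% to 12.2% of all genes, where a smaller group makes this easier. Genes of the whole array past the adjusted threshold were 1 in the main setting, 2 when each kept probe was tested (both of Mfn1), 2 with array weights (Mfn1 and Ndufb5) and between 1 and 3 with an array left out. Of 747 values of the 40 P450 genes named by the rule under the alternatives, 742 moved by less than the spread between mice and kept their side of the threshold. The other 5, all with a normexp offset of 16, were larger in size for genes near the floor. The sign of the fold change was kept in 20 of the 40 genes under all alternatives, among them Cyp4a14 (-0.64 to -0.37) and Cyp4a12a (0.58 to 1.30), and turned in at least 1 for the other 20. The causes of these shifts were not tested. Signals near the floor limit what the 23 P450 genes under the filter and the dim tested ones can show. No paired analysis was possible because the animal numbers are not shared between the groups.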
